A study of Rattus norvegicus with 16 samples.

Results

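The 6 lists of regions enriched for N4-acetylcytidine (ac4C) in RNA of primary rat aortic vascular smooth muscle cells were compared, 3 from control cells and 3 from cells depleted of Nat10. They are 6 of the 16 samples of the series and hold 71431 entries. In control lists 1 and 2, 26881 and 27673 entries carried 1 repeated p-value (0.045 and 0.046), and these were set apart because over 50% of the list shared that value. The other 16877 entries are the peaks described here, 8516 from control and 8361 from knockdown lists. All cells grew in DMEM/F12 with 20% fetal bovine serum and received an adenovirus for 48 h. Control cells (Adcon, genotype wild type) received Adenovirus-control. Knockdown cells (Adsh, genotype NAT10 knockdown) received Adenovirus-shRNA-NAT10, which carries a short hairpin RNA against Nat10. Both groups thus carried a virus. RNA was cut into fragments of 100 to 200 nt and precipitated with an antibody against ac4C. Input RNA, without precipitation, is described by 3 libraries per group. The 3 libraries of a group are called biological repeats, but no label says that they came from separate animals. The tests below therefore weigh differences against a spread that may be technical only.

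NAT10 is the acetyltransferase that places ac4C on RNA. Its best-known substrates are the RNA of the small ribosomal subunit, to which a small nucleolar RNA guides it, and the transfer RNAs for serine and leucine, where THUMPD1 acts as its adaptor. Acetylated cytidines have also been mapped in messenger RNA by antibody methods, where they have been linked to RNA stability and translation. Vascular smooth muscle cells make actin, contractile proteins, collagens and elastic fibres, and in culture with serum they divide and move.

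Input RNA checked the labels. Nat10 was at 8.96 ± 1.15 FPKM (fragments per kilobase of gene, scaled between libraries; SD, n = 3) in control and 4.21 ± 0.47 FPKM in knockdown input, a log2 change of -0.93 with a standard error of 0.19. All 3 knockdown libraries lay below all 3 control libraries, and limma's unadjusted value of 0.00159 became an adjusted p of 0.227 (Benjamini-Hochberg, 13450 genes). The smooth muscle genes Acta2, Tagln and Cald1 were abundant in input, with mean levels of 1099 FPKM for Acta2 and 349 FPKM for Cald1. Of 9 endothelial markers, 2 (Emcn and Cldn5) were at 0 in every input library and 1 (Eng) was above 1 FPKM, at a mean of 66.5 FPKM. Their summed level was 48.2 to 64.9 FPKM in control and 48.9 to 103 FPKM in knockdown libraries. Of 10 leukocyte markers, 2 (Cd3e and Ms4a1) were at 0 and 3 (Cd68, Cd14 and Cd74) had means of 5.29 to 7.87 FPKM, with sums of 14.5 to 24.8 and 13.0 to 32.3 FPKM. Of 12 adventitial fibroblast markers, 10 had a mean of at least 1 FPKM. Their summed level was 398 to 453 FPKM in control and 323 to 360 FPKM in knockdown libraries, without overlap. The summed levels of the endothelial, leukocyte and 10 neural markers overlapped between the groups. The part of such cells in the results below was not tested. In bulk RNA, fewer cells of a type and less RNA per cell cannot be told apart.

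The libraries differed before any comparison of groups. Control lists 1 to 3 kept 3117, 1920 and 3479 peaks in 2636, 1716 and 2848 genes. Knockdown lists 1 to 3 held 3111, 2658 and 2592 peaks in 2638, 2173 and 2225 genes. Control 2 was the shortest list of the 6, and the groups overlapped. The geometric mean in knockdown lists was 1.01 times that in control lists (exact permutation test, two-sided, p = 1; 3 lists against 3 cannot give p below 0.1). A second difference lay within the knockdown group. The authors' p was at most 0.001 for 75.3% of the peaks in knockdown 3, against 50.4% and 50.0% in knockdown 1 and 2 and 58.6% to 64.8% in the control lists. Knockdown 3 gave an authors' p of 0 for 105 peaks, and the other 5 lists for 27 to 34. The genes with peaks in knockdown 3 had a median input level of 25.6 FPKM, against 16.2 to 18.6 FPKM in the other lists. Each result below is therefore given list by list.

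**Figure D1:**
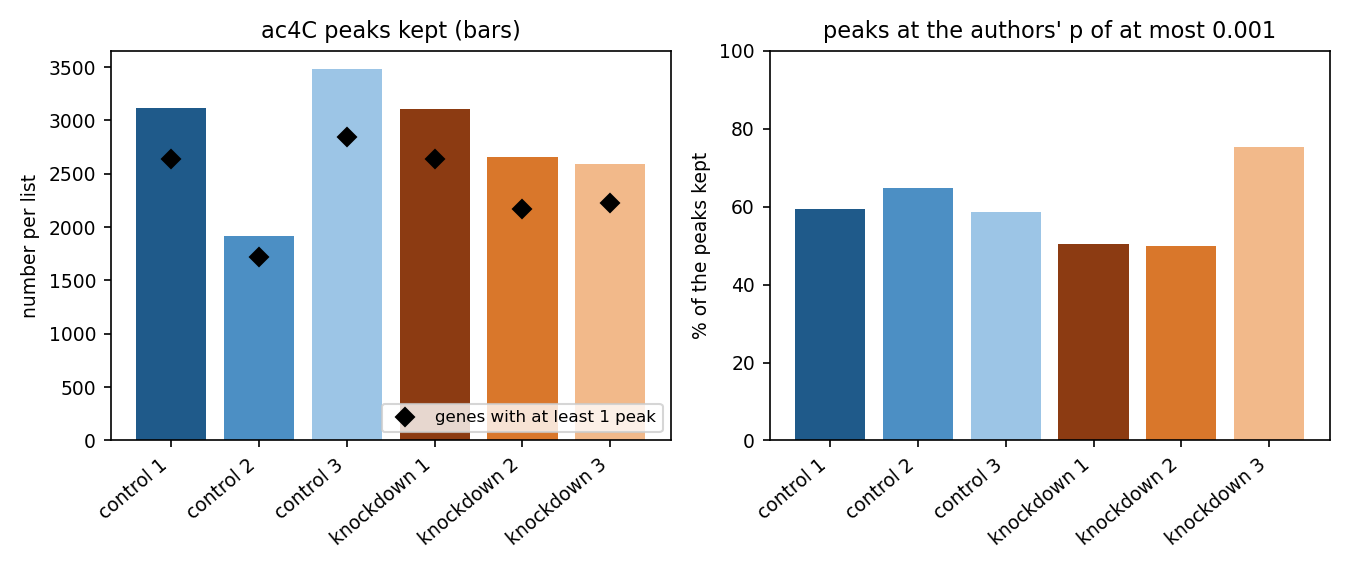
Left, bars give the number of ac4C peaks kept in each list and diamonds the number of genes with at least 1 peak. Right, bars give the percentage of those peaks at an authors' p of at most 0.001. Control 2 has the fewest peaks (1920) and knockdown 3 the highest share of small p-values (75.3%).

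The entries set apart were unlike the peaks. Their median length was 448 nt in control 1 and 451 nt in control 2, and 38.3% and 37.3% of them lay in genes at 0 FPKM in every input library. Of the peaks kept, 0.154% to 0.513% per list lay in such genes, and 95.2% to 96.7% lay in genes with a mean of at least 1 FPKM.

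The peaks of any list were shared with the other lists only in part, and lists of 1 group shared about as many peaks as lists of different groups. On average 28.8% of a control list's peaks overlapped a peak of another control list by at least 1 base on the same strand, and 31.0% of a knockdown list's peaks overlapped a peak of another knockdown list. Between the groups the average was 27.1%. The ranges were 18.9% to 34.7%, 24.9% to 39.3% and 15.5% to 40.4%. The corresponding averages for genes in common were 42.4%, 42.7% and 40.4%. Pairs share lists, so these values carry no test. Between 35.0% (knockdown 3) and 50.6% (knockdown 2) of a list's peaks overlapped no peak of any other list, and 5.95% to 10.4% overlapped a peak in all 5 others. Recurrent peaks had the smaller p-values within every list. In control 1 the median p was 4e-11 for peaks found in all 6 lists and 0.0015 for peaks found there alone.

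At least 1 peak in any list fell in 6839 genes. Of these, 3377 (49.4%) had a peak in 1 list only and 291 (4.26%) in all 6. A peak in all 3 control lists and no knockdown list was seen in 67 of the 6839 genes (0.98%), and the opposite in 40 (0.585%). Among the 13450 genes with a mean input level of at least 1 FPKM these counts were 66 (0.491%) and 40 (0.297%). Both sets were small beside the 1700 genes with a peak in 1 control list alone and the 1677 genes with a peak in 1 knockdown list alone. The threshold on p mattered for which genes these were. With peaks at p of at most 0.001 only, 48 genes were specific to the control lists and 27 to the knockdown lists, of which 29 and 15 were among the 67 and 40. Leaving out 1 list, so that fewer lists had to be met, gave 98 to 241 control-specific genes (the most without control 2) and 59 to 166 knockdown-specific genes (the most without knockdown 2). A single gene in 3 lists against 3 cannot pass a test, so all of these are descriptions.

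**Figure D2:**
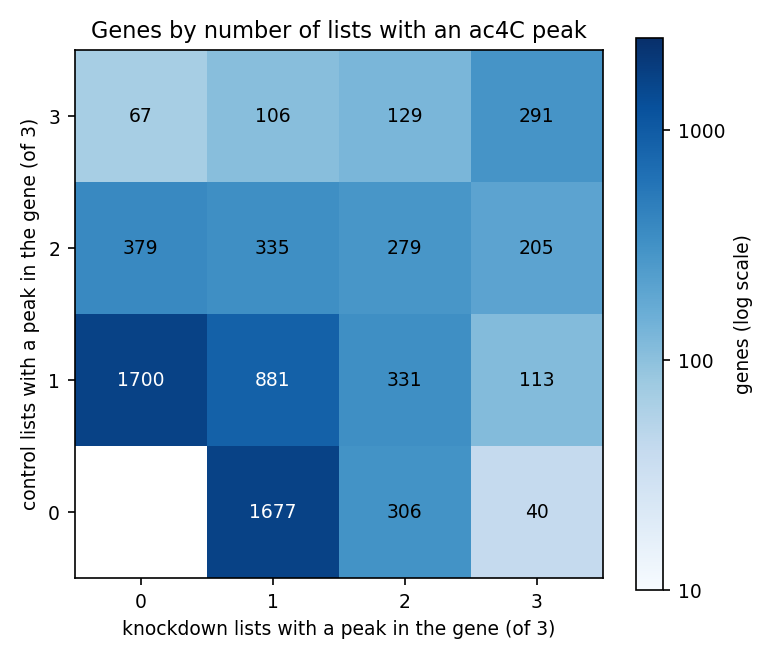
Number of genes (printed in each cell, colour on a log scale) by the number of control lists and of knockdown lists with an ac4C peak in the gene. The corner for all 3 control and no knockdown list holds 67 genes, the opposite corner 40, and the corner for all 6 lists 291.

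Abundant genes carried peaks more often in every list. Of the 2605 genes at 1 to 3 FPKM, 3.45% to 7.1% had a peak, and of the 191 genes at 300 FPKM or more, 35.1% to 74.3% did. In the highest class the control lists held 45.5%, 35.1% and 48.2% of the genes and the knockdown lists 45.0%, 36.6% and 74.3%. Knockdown 3 stood above the other 5 lists there. It stood below all 5 between 3 and 10 FPKM and below 4 of them between 10 and 30 FPKM. Between 30 and 100 FPKM the control lists held 28.7%, 19.8% and 31.9% and the knockdown lists 28.6%, 22.7% and 32.1%. Read depth of the precipitated libraries is not in the lists, so its part in these shares was not tested.

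**Figure D3:**
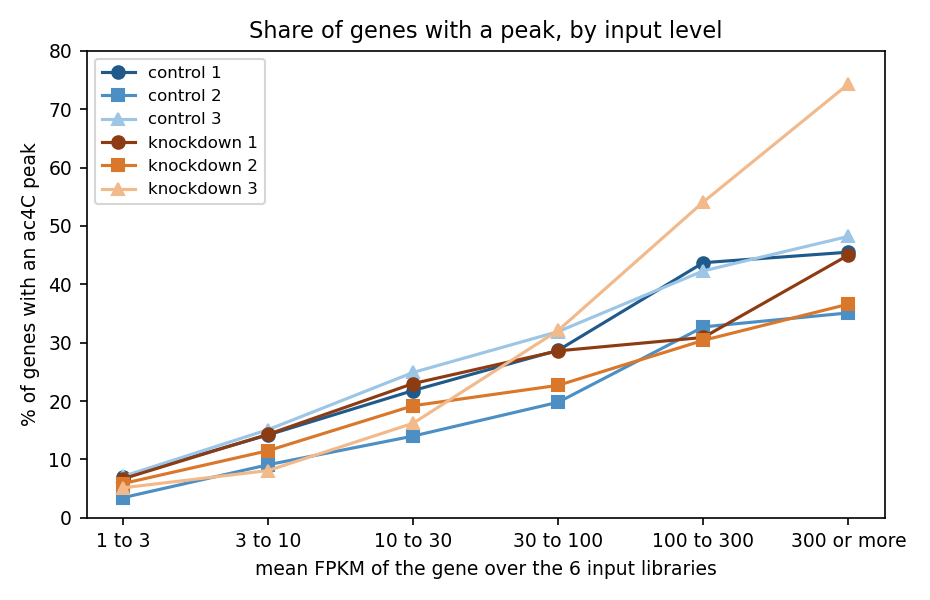
Percentage of genes with an ac4C peak (y axis) in 6 classes of mean input FPKM (x axis), 1 line per list. All lines rise with the input level, and knockdown 3 reaches 74.3% among genes at 300 FPKM or more, where the other lists lie between 35.1% and 48.2%.

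Genes with a peak in all 6 lists, chosen for that, were ranked by their best p in each list. The first 12 were Col1a1, Rpl35, the mitochondrial ribosomal RNA genes AY172581.9 and AY172581.24, Mt-co1, AABR07015078.1 and AABR07015078.2, the long noncoding RNA AC134224.3, Mt-nd6, Rpl4, Mt-co2 and Ftl1. Col1a1 encodes the main chain of type I collagen, the most abundant protein of fibrous matrix. It had 2 peaks in every list, and a peak at the 3' end of the pair ended at the same base (position 82762789 of chromosome 10) in all 6. Its outer span was 82762460-82762789 in control 1, 82762401-82762789 in controls 2 and 3, 82762431-82762789 in knockdown 1, 82762490-82762789 in knockdown 2 and 82762281-82762789 in knockdown 3. The best p of Col1a1 was listed at 0 in all 6. Its input level was 6081 ± 186 FPKM in control and 4485 ± 1720 FPKM in knockdown libraries, a difference within the spread (log2 change -0.51, limma adjusted p 0.677).

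Rpl4 and Rpl35, proteins of the large ribosomal subunit, each had 1 peak per list. The Rpl4 peak ended at base 69126805 of chromosome 8 in every list and measured 207, 207 and 237 nt in control lists and 237, 178 and 296 nt in knockdown lists. In Rpl35, on the minus strand, the 3' end of the peak was at base 23294814 of chromosome 3 in every list. The peak covered parts of 2, 1 and 3 exons in control lists and 3, 2 and 4 exons in knockdown lists. The authors' p was 0 in all 6 lists for Rpl35, and for Rpl4 in all but knockdown 2 (1e-100). Mt-co1, which encodes a core subunit of cytochrome c oxidase, had a peak ending at base 6867 of the mitochondrial genome in all 6 lists, and knockdown 3 listed a second peak at 5709-6006. Ftl1, the ferritin light chain, had a peak ending at base 152326778 of chromosome 5 in every list. It measured 206, 352 and 323 nt in control lists and 177 nt in each knockdown list, and control 1 had a second peak at 152326193-152326368.

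Genes that are not protein-coding held a small share of the peaks of every list. The class pseudogene is among them, with 51, 30 and 42 peaks in control and 47, 39 and 21 in knockdown lists. So is the class processed pseudogene, with 34, 23 and 23 peaks in control and 38, 28 and 15 in knockdown lists. Peaks outside protein-coding genes made up 5.45%, 5.36% and 4.20% of the control lists and 5.46%, 5.30% and 3.74% of the knockdown lists (exact permutation test, p = 0.7, adjusted over 11 measures 1). All lists held 2 peaks in mitochondrial ribosomal RNA, and each covered the whole gene: 68-1025 for AY172581.9 (958 nt) and 1094-2664 for AY172581.24 (1571 nt). Whole-gene peaks were also found in the 153-nt genes ENSRNOG00000051831 (chr1:11906441-11906593) and ENSRNOG00000056172 (chr5:91134985-91135137), both listed under the family name of the 5.8S ribosomal RNA, RF00002. For ENSRNOG00000051831 the p-values were 1e-310, 0.0032 and 1.3e-15 in control and 1e-149, 1e-214 and 3.2e-43 in knockdown lists. The groups overlapped, and control 2 had the largest of the 6. Each list had 4 peaks in genes of the class rRNA, in 5 such genes of the 329 in the table. The RNA of the small cytosolic subunit was not analysed here.

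AC134224.3 is a lincRNA of 695 nt whose entire length (chr1:221158098-221158792, minus strand) was 1 peak with an authors' p of 0 in all 6 lists. Its input level was 4179 ± 267 FPKM in control and 9913 ± 3689 FPKM in knockdown libraries (log2 change 1.19, standard error 0.48, limma adjusted p 0.385). The control libraries were at 4474.5, 3954 and 4108 FPKM and the knockdown libraries at 7649, 14169 and 7920 FPKM, without overlap. Small nuclear and signal recognition RNAs recurred too. The genes RF00004 (U2, which pairs with the branch site in splicing), RF00100 (7SK, which holds back a transcription elongation factor), 2 RF00003 genes (U1) and Rn7sl1 (the RNA of the signal recognition particle) had a peak in all 6 lists. Rn7sl1 and its near-copies under RF00017 are multicopy genes, and Rn7sl1 had no fragment in any input library. The labels name an mRNA kit for the input libraries and another kit for the precipitated ones.

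Some of these entries cannot be assigned to 1 gene. AABR07015078.1 and AABR07015078.2 lie on opposite strands of the same stretch of chromosome 14 (46649971-46650381 and 46649976-46650359), and both had a peak in all 6 lists. Mt-nd6 (13543-14061, minus strand) lies opposite other mitochondrial transcripts. No source used here says whether reads were counted by strand, so such pairs cannot be told apart. Between 1.58% and 3.32% of the peaks of a list overlapped a peak assigned to another gene. Ftl1, Hsp90aa1 and the ribosomal protein genes have processed copies in the genome, so their peaks are uncertain in the same way.

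Nat10 itself, Itgb1 and Col1a2 differed between libraries of 1 group. In Nat10, control 1 had a peak at chr3:93658594-93661061 (239 nt over 2 exons, authors' p 1.2e-05) and control 3 one at chr3:93658653-93661919 (240 nt over 3 exons, 0.00047). Control 2 had none. Knockdown 2 had a peak in a separate region, chr3:93658147-93658266 (authors' p 0.0058). Knockdowns 1 and 3 had none.

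Itgb1 encodes integrin beta 1, the shared chain of most collagen and fibronectin receptors. It had 1, 0 and 3 peaks in control and 0, 4 and 1 in knockdown lists. The region at chr19:61725175-61725475 was marked in controls 1 and 3 and in knockdown 2, and the region at chr19:61702300-61705347 in control 3 and in knockdowns 2 and 3. Neither region separated the groups. The input level of Itgb1 was 644 ± 94.1 FPKM in control and 190 ± 121 FPKM in knockdown libraries (log2 change -1.94, standard error 0.45, limma adjusted p 0.266).

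Col1a2, which encodes the other chain of type I collagen, had 4, 4 and 5 peaks in control and 2, 2 and 3 in knockdown lists. These numbers did not overlap between the groups. How many other genes separate by number of peaks is not given, so this is a description of Col1a2 alone. A peak near the 3' end of the gene, reaching base 31569121 or 31569151 of chromosome 4, was present in 5 of the 6 lists and absent from knockdown 1. The regions at 31547858-31550657 and 31552668-31556042 held peaks in control lists only (2 and 1 of 3). Input Col1a2 was at 192 ± 24.0 FPKM in control and 101 ± 69.5 FPKM in knockdown libraries, a log2 change of -1.14 (limma adjusted p 0.389). The libraries were at 181, 176 and 220 FPKM in control and 81.8, 43.4 and 178 FPKM in knockdown. The mean input level was thus lower in knockdown, as was the number of peaks, but the input levels overlapped through knockdown 3. The part of the input level in the number of peaks was not tested.

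**Figure D4:**
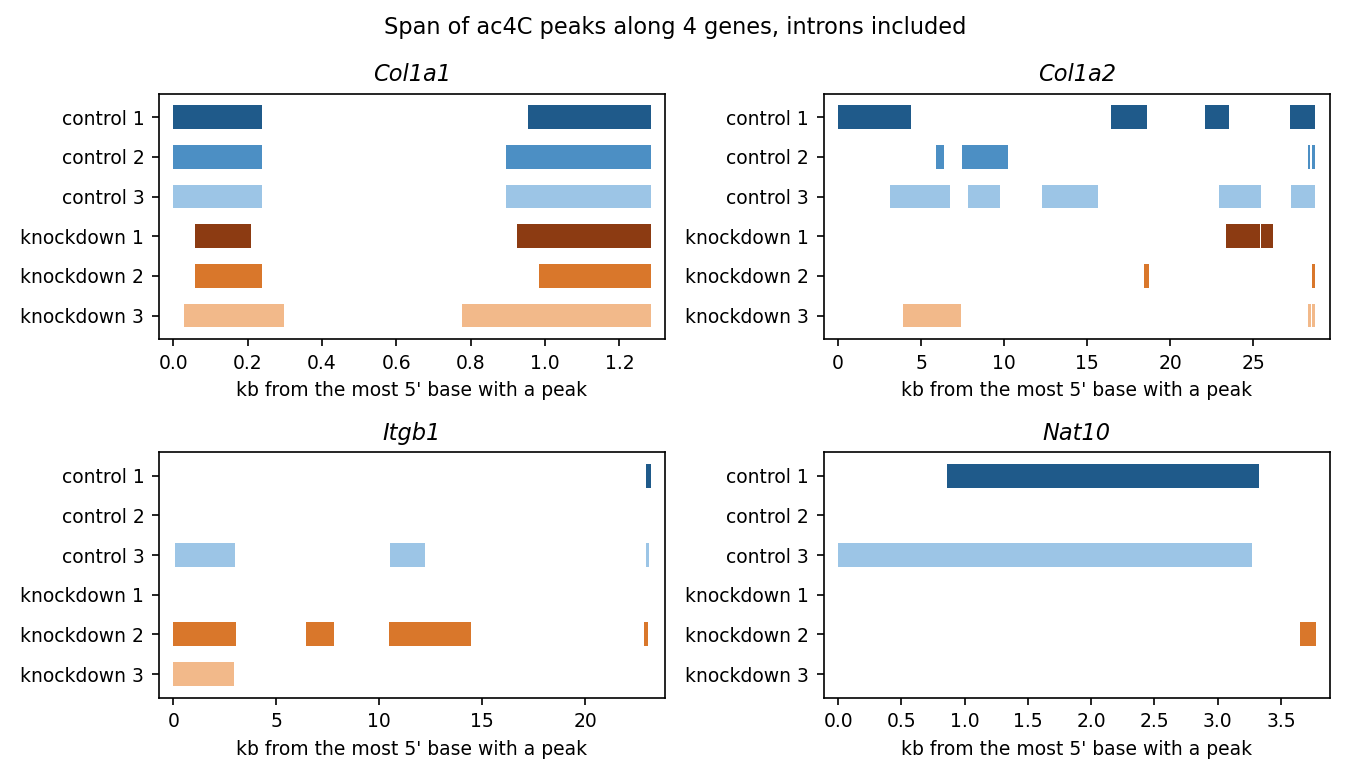
Genomic span of each ac4C peak, introns included, in the 6 lists for Col1a1, Col1a2, Itgb1 and Nat10. The x axis is the distance in kb from the most 5' base with a peak in any list, and a row without a bar has no peak. Col1a1 shows the same 2 peaks in all 6 lists, Col1a2 more spans in control than in knockdown lists, and Itgb1 and Nat10 peaks in lists of both groups.

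The 67 genes with peaks in every control list and no knockdown list were led, by input level, by Nedd4 (a ubiquitin ligase), Fau (a ribosomal protein fused to a ubiquitin-like protein), Nid1 (nidogen, a basement membrane linker), Fhl1 (a LIM-domain protein of muscle), Gdi2 (a regulator of Rab GTPases), Dstn (destrin, which severs actin filaments), Anxa1 (annexin A1), Cd200, Arpc2 (a subunit of the Arp2/3 complex that branches actin), Copa (a coat protein of Golgi vesicles), Itga1 (a collagen-binding integrin) and Ubqln1. The peaks of several fell on 1 stretch in all 3 control lists. In Nedd4 they were chr8:79408534-79408833, chr8:79408504-79408713 and chr8:79408504-79408833, with p-values of 2e-26, 1e-141 and 6.3e-58. In Dstn they were chr3:138051091-138051268, chr3:138051032-138051268 and chr3:138051062-138051298, with 2e-13, 0 and 7.9e-23. In Itga1 all joined exons within chr2:47127457-47134443, with 5e-23, 1.6e-29 and 2.5e-97. In Fau, Nid1, Arpc2 and Ubqln1 at least 1 control list had its peaks elsewhere in the gene.

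For these genes the input level differed from case to case. Anxa1 was at 198 ± 21.6 FPKM in control and 56.5 ± 21.1 FPKM in knockdown input (log2 change -1.85, limma adjusted p 0.191). Fhl1 was at 253 ± 65.0 and 106 ± 36.2 FPKM (adjusted p 0.266), and Cd200 at 149 ± 19.1 and 69.5 ± 28.7 FPKM (adjusted p 0.291). Nedd4, at 289 ± 14.4 and 258 ± 31.7 FPKM, and Nid1, at 228 ± 13.6 and 218 ± 28.6 FPKM, differed by about the spread between libraries. Arpc2, Copa and Ubqln1 had log2 changes of -0.08, -0.05 and 0.08. Fau, Gdi2, Dstn and Itga1 had log2 changes of -0.46, -0.50, -0.53 and -0.63 (limma adjusted p 0.411 to 0.556). Dstn was at 176 ± 46.6 FPKM in control and 120 ± 15.9 FPKM in knockdown input, without overlap. Over the 66 control-specific genes tested, the log2 change was positive in 24 and negative in 42, against 6536 and 6914 of all 13450 genes.

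The 40 genes with peaks in every knockdown list and no control list were led by F2r (the thrombin receptor), Eif4g2 (a translation initiation factor), Bhlhe40 (a transcription factor), Gja1 (connexin 43, a gap junction channel), Kif5b (a kinesin), Swi5 (a recombination factor), Dbn1 (drebrin, an actin-binding protein) and Map4 (a microtubule-associated protein). The authors' p-values of Map4 were 0.0045, 0.0033 and 9.5e-05, and those of Gja1 0.00017, 0.00062 and 4.5e-07. Swi5 had 1 shared region, with peaks at chr3:11307981-11308130, chr3:11308040-11308219 and chr3:11308011-11308130, and so had Dbn1, within chr17:9685881-9689737. In Map4 the 3 peaks lay in separate places, and in Gja1 a single place was shared, between knockdowns 1 and 2. These 8, the most abundant of the 40, had a lower mean input level in knockdown than in control libraries, whereas over all 40 the log2 change was positive in 23 and negative in 17. Gja1 was at 117 ± 3.24 FPKM in control and 56.2 ± 33.3 FPKM in knockdown libraries (limma adjusted p 0.373).

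Across all 13450 genes tested in input, limma called 0 at an adjusted p of 0.05 (0.0%), and 744 (5.53%) were higher and 935 (6.95%) lower in knockdown at an unadjusted p under 0.05. These unadjusted counts rested on single libraries: they were 1146 and 1431 without knockdown 3, 365 and 468 without control 2, and 356 and 484 without control 3. The median log2 change was -0.01. Of the 281 genes with a peak in all 6 lists that were tested, 9 were higher and 38 lower by the unadjusted test, with a median of -0.14. Without knockdown 3 these were 20, 61 and -0.22, without knockdown 2 19, 41 and -0.11, without control 2 4, 23 and -0.14, without control 3 5, 20 and -0.11, and without control 1 4, 33 and -0.20. Of the 66 control-specific genes, 3 were higher and 6 lower (median -0.08), and of the 40 knockdown-specific genes 4 were higher and 5 lower (median 0.07). Without knockdown 3 the counts were 5 and 13 for the control-specific genes and 9 and 10 for the knockdown-specific genes. Over the libraries left out, the median of the knockdown-specific genes was 0.01 (without knockdown 1) to 0.17 (without knockdown 2). RNA precipitated with NAT10 in untreated cells (NAT10 RIP, 3 libraries) included 2.68% of all 13450 genes in all 3 libraries and 13.5% of the 281 genes. Those 281 were longer (median 3170 against 2054 nt) and more abundant (36.5 against 10 FPKM). The shares among control-specific and knockdown-specific genes were 7.58% (5 of 66) and 7.5% (3 of 40). Among all genes with a peak in a given list the share was 6.25% (control 1) to 8.31% (knockdown 2), so both lay within that range. The control-specific and knockdown-specific genes were also longer (medians of 3591 and 2814.5 nt) and more abundant (21.0 and 25.2 FPKM) than all genes.

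Functional groups were described by the share of members with a peak, counting members with a mean of at least 1 FPKM. Over all 13450 genes that share was 18.7%, 12.2% and 20.4% in control and 18.6%, 15.4% and 16.0% in knockdown lists. In none of the 19 gene lists with at least 10 such members did the 3 control lists separate from the 3 knockdown lists. Exact permutation p-values were 0.3 to 1 and all were 1 after adjustment over the 19 lists. The median input level of the 19 lists was 12.1 to 3630 FPKM, against 10 FPKM over all genes.

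Collagens and matrix genes carried peaks in 18, 14 and 16 of 31 members in control and 13, 15 and 24 in knockdown lists. Knockdown 3 was the highest and knockdown 1 the lowest. Besides Col1a1 and Col1a2, Col3a1 (fibrillar collagen III), Fn1 (fibronectin), Bgn (biglycan, a small proteoglycan) and Plod2 (a collagen lysyl hydroxylase) had a peak in all 6 lists. Dcn, Lum and Loxl2 had none in any. The authors' p of Fn1 was 0 in every control list and 1e-18, 1e-200 and 1e-198 in knockdown lists. That of Bgn was 0 in every control list and 1e-249, 4e-42 and 0 in knockdown lists.

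Integrins and focal adhesion genes had peaks in 11, 10 and 13 of 23 members in control and 5, 10 and 14 in knockdown lists. Actn4 (alpha-actinin 4, which links integrin sites to actin) and Parva (parvin alpha) had a peak in all 6 lists. Itga1 was control-specific, and Itgav, Itgb3, Bcar1, Ptk2 and Lims1 had no peak. Flna, the actin crosslinker filamin A, had 1, 0 and 1 peaks in control and 1, 11 and 1 in knockdown lists. The 11 peaks in knockdown 2 are the most in any gene of the 6 lists.

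Contractile genes had peaks in 9, 6 and 8 of 17 members in control and 6, 12 and 11 in knockdown lists. Cald1 (caldesmon) and Lmod1 (leiomodin, which seeds actin filaments in smooth muscle) had a peak in all 6. Acta2, smooth muscle actin, had 1 peak in each control list and 0, 2 and 1 in knockdown lists. Its input level was 1714 ± 401 FPKM in control and 483 ± 424 FPKM in knockdown libraries (log2 change -2.22, limma adjusted p 0.305). Myh11 (smooth muscle myosin) had peaks in knockdown 2 alone, 3 of them, and Cnn1, Actg2 and Synpo2 had none.

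Genes of actin filament dynamics had peaks in 10, 10 and 12 of 20 members in control and 7, 7 and 10 in knockdown lists (means of 53.3% and 40%, exact permutation p = 0.3). Knockdown 3 equalled the lowest control lists. Pfn1 (profilin), Tmsb4x (thymosin beta 4), Msn (moesin) and Actg1 had a peak in all 6. Dstn and Arpc2, above, were the control-specific members, and no member was knockdown-specific.

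Ribosomal protein genes carried peaks in 17, 7 and 12 of 38 members in control and 20, 10 and 28 in knockdown lists. The means were 31.6% and 50.9% (exact permutation p = 0.3). Of the 38, 22 had a peak in more knockdown than control lists and 4 in more control lists, against 2475 and 2534 of all 13450 genes. The median input level of these 38 genes was 347 FPKM, in the range where knockdown 3 exceeded all other lists. The difference of 19.3 percentage points was 7.89 without knockdown 3, 12.7 without control 2 and 31.6 without knockdown 2. Rpl4 and Rpl13a had a peak in all 6 lists, Rpl5 in all but control 2, and Rps3 and Rpl19 in none.

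Translation factors had peaks in 11, 5 and 12 of 23 members in control and 14, 10 and 17 in knockdown lists (means of 40.6% and 59.4%, exact permutation p = 0.3). The difference of 18.8 points was 9.42 without control 2 and 11.6 without knockdown 3. Eif3a, a scaffold subunit of initiation factor 3, had 3, 2 and 3 peaks in control and 3 in each knockdown list. Eif5b, which joins the ribosomal subunits, had 2, 3 and 3 against 2, 3 and 3. Pabpc1, the poly(A)-binding protein, had peaks in all lists but control 2. Eef1a1, the elongation factor that brings transfer RNA to the ribosome, had no peak in any list, nor had Eif1 and Eif3e.

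Ribosome biogenesis genes, the class to which NAT10 belongs, had peaks in 11, 4 and 11 of 23 members in control and 11, 11 and 10 in knockdown lists. Control 2 alone was low. Ncl (nucleolin), Fbl (fibrillarin, a methyltransferase of ribosomal RNA) and Nop58 had peaks in all 6. Ncl had 4, 2 and 3 peaks in control and 2, 3 and 3 in knockdown lists.

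Among RNA modification enzymes, 8, 4 and 9 of 19 had a peak in control and 6, 5 and 6 in knockdown lists. Ythdc1, a nuclear reader of methylated adenosine, and Alkbh5, an eraser of that mark, had a peak in all 6. Dkc1, the pseudouridine synthase of ribosomal RNA, had one in all lists but control 2. The methyltransferase genes Mettl3 and Mettl14 had peaks in control lists only, each in 2 of 3. Of the 6839 genes with a peak in any list, 379 (5.54%) had this pattern and 306 (4.47%) the opposite one.

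Genes of folding in the endoplasmic reticulum had peaks in 11, 10 and 11 of 22 members in control and 8, 8 and 12 in knockdown lists, and Hspa5, Hsp90b1, Calr, Canx and Pdia3 had a peak in all 6. Sel1l, a part of the degradation machinery there, was the control-specific member. Cytosolic chaperones had 7, 5 and 11 of 21 against 9, 5 and 12. Hsp90aa1 had a peak in all 6, and Cct7, a chaperonin subunit, was knockdown-specific. Hsp90ab1, an abundant cytosolic chaperone, had 2, 0 and 1 peaks in control and 2, 1 and 4 in knockdown lists.

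Secreted signals with a peak in all 6 lists were Ccn1 and Ccn2 (matricellular proteins induced by TGF-beta and stretch) and Tgfb3. The intracellular inhibitor Smad7 had one in all 6 as well. The list of growth factor and TGF-beta genes had 10, 7 and 6 of 19 members with a peak in control and 8, 7 and 7 in knockdown lists. The receptors Fgfr1, Igf1r and Tgfbr2 and the ligand Tgfb1 had none. Ccn2 was at 3892 ± 415 FPKM in control and 1464 ± 1244 FPKM in knockdown input (limma adjusted p 0.355), with 1 peak in every list. Matrix proteases and inhibitors as a list had 5, 5 and 4 of 12 against 3, 3 and 5, and Mmp2, a gelatinase, had a peak in each control list and in knockdown 3.

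Glycolytic genes had peaks in 4, 1 and 3 of 15 in control and 5, 3 and 9 in knockdown lists. Pgam1 had a peak in control 2 and all 3 knockdown lists, and Pkm in none. Nuclear genes of the respiratory chain had 4, 1 and 4 of 20 against 2, 1 and 6. The 13 mitochondrial genes of the same chain had 12, 12 and 13 against 13, 10 and 13, at a median input level of 3630 FPKM. Cholesterol and lipid synthesis genes had 3, 1 and 6 of 20 against 6, 2 and 4. Sc5d, a sterol desaturase, was knockdown-specific, with p-values of 0.0095, 0.0054 and 9.3e-05. Lysosomal genes had 7, 7 and 4 of 15 against 4, 0 and 6. Psap (prosaposin) had p-values of 7.9e-22, 0 and 0 in control and 1e-170 in knockdown 1, with no peak in knockdowns 2 and 3.

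Cell cycle genes had 9, 2 and 5 of 25 members with a peak in control and 6, 8 and 4 in knockdown lists. Ccnd1 (cyclin D1) had 2 peaks in each list but control 2, which had none. Cdk1, the kinase that drives mitosis, had 1 in all lists but knockdown 3. Pcna, Cdk4 and Cdk6 had none.

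**Figure D5:**
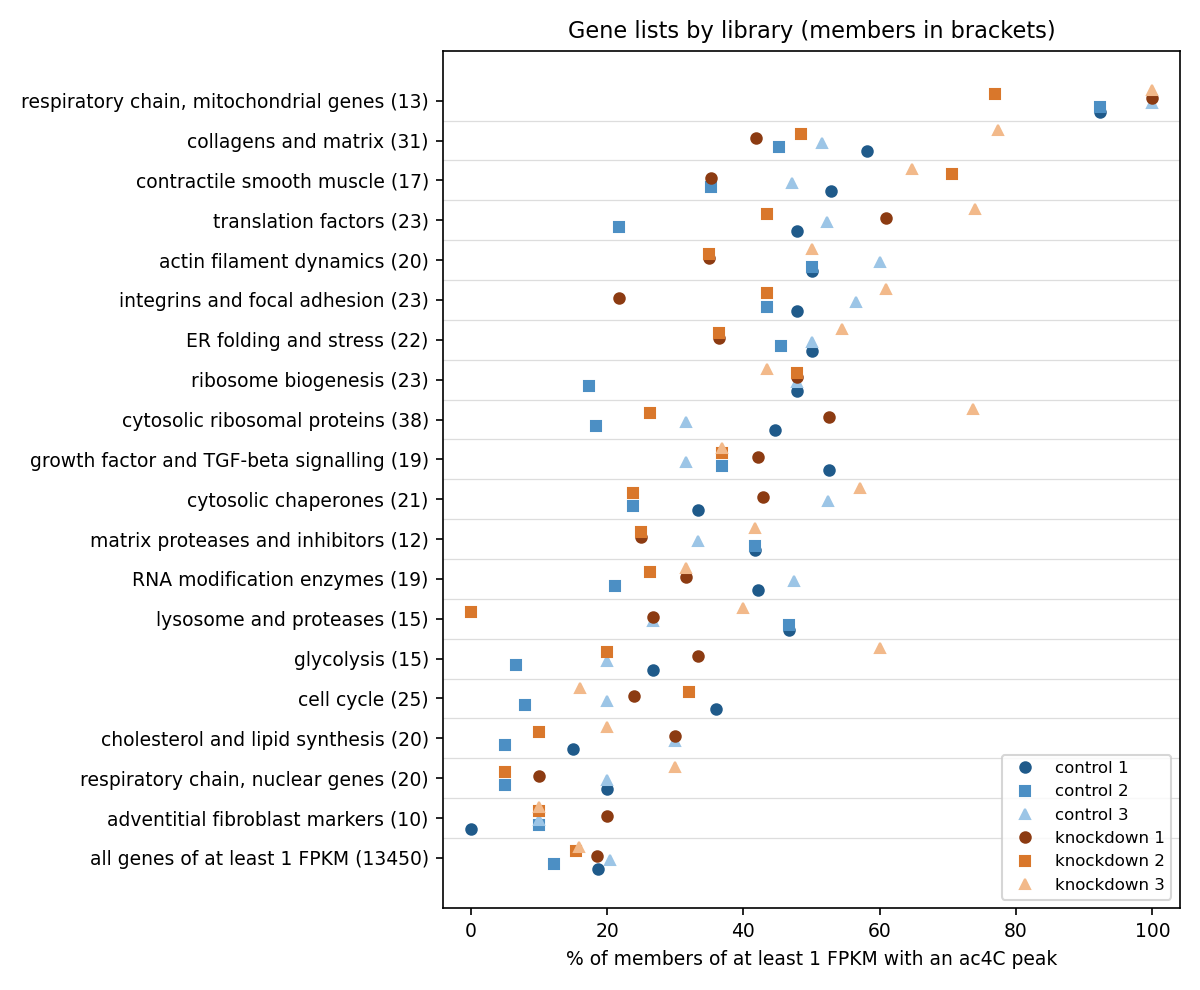
Percentage of the members of each gene list with an ac4C peak (x axis), 1 symbol per list of peaks, with the number of members of at least 1 FPKM in brackets. Blue and orange symbols overlap in every row, and the bottom row gives the same percentage over all 13450 genes.

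Peak size and place were compared last. Median exonic peak length was 179 nt in each control list and 151, 151 and 181 nt in knockdown lists (exact permutation p = 0.4, adjusted over 11 measures 0.88). The share of peaks that joined exons across a splice junction was 29.2%, 24.4% and 31.3% in control and 31.5%, 36.3% and 34.0% in knockdown lists. The 3 knockdown lists lay above the 3 control lists, which gives the smallest p that 3 against 3 allows (0.1, adjusted 0.825). The difference of 5.61 points was 3.67 without control 2. This measure was added after the files had been seen.

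Exons could be placed in full for 228 of the 6839 genes, with 519 peaks. Their median length was 411 to 648 nt per list, and 16 to 46 peaks per list covered the whole gene, so the median midpoint was at 0.5 of the gene in every list. For the 2157 genes with at least 2 separate regions, the place of each of 9319 peaks was taken between the most 5' and the most 3' peak of the gene over all lists (0 to 1). The mean place was 0.57, 0.62 and 0.55 in control and 0.53, 0.49 and 0.58 in knockdown lists (exact permutation p = 0.3, adjusted 0.825). The groups overlapped through knockdown 3. With peaks at p of at most 0.001 the difference was -0.09 and the groups did not overlap (exact permutation p = 0.1). That is the smallest p that 3 against 3 allows, at 1 of several alternative settings. Like the share of peaks across a junction, this measure was added to the planned ones.

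Among the 291 genes with peaks in all 6 lists, the mean midpoints of 34 (11.7%) did not overlap between the groups, 14 of them (4.81%) lying closer to the 3' end in knockdown lists and 20 (6.87%) closer to the 5' end. These counts are a description, and no gene was tested for a move. The largest genomic distances between the group means, introns included, were in Macf1 (-79342 nt, toward the 5' end in knockdown), Col11a1 (-41553 nt) and Setd5 (-19102 nt), and in Fip1l1 (18094 nt toward the 3' end). Macf1 encodes a giant linker of actin and microtubules on the minus strand. All 3 control lists had a peak between bases 141039558 and 141039948 of chromosome 5, the 3'-most region of the gene with a peak, and no knockdown list did. The region at chr5:141158609-141158909 was marked in all lists but control 2. In Col11a1, a fibrillar collagen, the 3 control lists had a peak between 217055774 and 217056193 of chromosome 2 and the knockdown lists had theirs further 5'. Input Col11a1 was at 180 ± 38.0 FPKM in control and 45.3 ± 30.4 FPKM in knockdown libraries (limma adjusted p 0.227), and Macf1 at 50.7 ± 0.89 and 41.9 ± 6.27 FPKM (adjusted p 0.516).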

How the data were processed

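Peak lists of 6 ac4C libraries, FPKM of 6 input libraries and peak lists of 3 NAT10 RIP libraries were used. Each library's group and number were read from its title. The authors deposited FPKM per Ensembl gene, and 1 list per ac4C library with a p-value per peak, exon blocks and no enrichment. The peak caller, and whether that p-value is raw or adjusted, are stated in no source used here. The NAT10 RIP lists the authors deposited carry a log2 enrichment, per the file headers, which was not used. Per the submitters' processing notes, the tools included cutadapt 2.5, HISAT2 2.1.0, HOMER 4.10.4, featureCounts 1.6.3 and DESeq2, and the builds rn6, GRCm38 and GRCh38 are named with no role for any. The only rat build named is rn6. Coordinates are those of the lists, with 1 added to each start.

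Lists were compared with exact two-sided permutation tests over libraries in Python 3.11.15, adjusted by Benjamini-Hochberg over 11 measures or 19 gene lists. Input was tested with limma 3.58.1 (variance trend on the mean) on log2(FPKM + 1), for genes with a mean of at least 1 FPKM. Whole fragments recovered from the FPKM values numbered 12065991, 8171176 and 8623541 in control and 6417941, 7106004 and 7468528 in knockdown input libraries. The depth of the precipitated libraries is unknown. Scripts were tested on simulated data. There, limma recovered 21 of 100 genes changed by 1 on the log2 scale and 72 of 100 changed by 2. It made 3 false calls, so many changes of that size in input can be missed.

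Of 23 gene lists, 433 of 450 entries matched the table. Named were Nat10, Itgb1 and Col1a2; the 12 best-ranked genes with a peak in all 6 lists; the 12 control-specific and 8 knockdown-specific genes of highest input level; up to 3 members of each gene list with peaks in the most lists, ties by input level; the 4 genes that are not protein-coding with peaks in the most lists; and the 4 largest moves of midpoints. Members without a peak, and others beside them, were named after their values were seen. Some genes that the rule names, and some gene families, are not reported here. The members and lists were chosen with earlier results of these data known. Alternatives kept all entries, raised the threshold, equalised list length, left out each library and used the replicate block. No genome of the build was used, so no peak sequence is shown.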

Additional observations from a re-analysis of the deposited data

How the results depend on the processing

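Keeping all entries turned the difference in peaks per list to -2.39 on the log2 scale, from 0.01, and raised control-specific genes from 67 to 303. It also turned the differences (knockdown minus control, percentage points) to -10.5 for peaks across a junction, -9.52 for cytosolic chaperones, -13.3 for cell cycle, -16.7 for cholesterol synthesis and -10 for fibroblast markers. Peaks at p of at most 0.001 gave -0.071 for peaks per list, 10 nt for peak length, -0.47 points for peaks near the 3' end of a gene, 0.29 for peaks outside protein-coding genes and -3.33 for fibroblast markers, with 191 genes in all 6 lists. The 1500 peaks with the smallest p gave 10 nt, -6.67 for fibroblast markers, 39 control-specific genes and 181 in all 6. No difference crossed 0.05 under any of these settings, since the design allows no p below 0.1. Leaving out 1 library moved control-specific genes to between 98 and 241, knockdown-specific genes to between 59 and 166, and genes in all remaining lists to between 310 and 445, as fewer lists had to be met. The highest of each were without control 2, without knockdown 2 and without control 2, in that order. Differences then ranged from -0.25 to 0.18 (log2) for peaks and -0.23 to 0.14 for genes per list. In points they ranged from -0.57 to 0.38 outside protein-coding genes, -2.90 to 1.19 over all expressed genes, -6.45 to 11.3 for matrix, -16.7 to 2.90 for integrins, -1.45 to 13.8 for ribosome biogenesis, -3.17 to 13.5 for chaperones, -6.41 to 5.13 for mitochondrial genes, -4 to 10 for cell cycle, -2.5 to 10 for cholesterol synthesis and -6.14 to 4.39 for growth factors. Limma on input called 1 gene without control 3 or without knockdown 2 and 0 otherwise. The cause of these changes was not tested. Whether replicate numbers pair the libraries is not known and was not tested. In their deviations, same-numbered ac4C libraries correlated by 0.008, 0.03 and -0.01, and differently numbered ones by -0.04 to 0.03. Same-numbered inputs correlated by -0.21, -0.28 and 0.18, and differently numbered ones by -0.29 to 0.41. With the replicate block, an exact sign-flip test over 3 pairs (smallest p 0.25), the difference in peaks per list stayed at 0.01 and that in peaks across a junction at 5.61 points (p = 0.25), and limma called 0 genes in input, with 500 higher and 676 lower unadjusted.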

Other observations

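Gene families among the 291 genes with a peak in all 6 lists were counted by the start of the gene symbol, a choice made after those genes had been seen, so the counts carry no test. Over all 13450 genes of at least 1 FPKM, 281 (2.09%) had a peak in all 6 lists. Both Luc7l2 and Luc7l3, splicing factors that bind the U1 particle, did. So did 3 of 9 chromodomain helicases (Chd2, Chd3 and Chd4). Both families had median input levels of 23.3 to 51.2 FPKM and median lengths of 2989 to 8519 nt, against 10 FPKM and 2054 nt over all genes. Of 46 respiratory complex I genes (median 27.7 FPKM, 817 nt) and 200 solute carriers (median 8.85 FPKM, 2610 nt), 0 had a peak in all 6 lists. Further families counted include SR splicing factors (1 of 11), hnRNP proteins (1 of 19), snRNP proteins (1 of 6), DEAD-box helicases (2 of 33) and proteasome subunits (3 of 47).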
